A study of Mus musculus with 6 samples.

Results

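Cholesterol synthesis genes were examined in mouse ovary at E18.5, shortly before birth, in 3 libraries labelled WT and 3 labelled Hnrnpl-null. The set was chosen by name and holds 7 genes of the 25239 in the count table: Hmgcs1, Idi1, Fdft1, Sqle, Cyp51 and Dhcr7, which encode enzymes of cholesterol synthesis, and Insig1, which encodes a sterol-dependent brake on that synthesis. None of the 7 encodes a lipoprotein receptor, so uptake is described from a wider list. Both groups are of strain C57BL/6, and the genotype label is their stated difference. Hnrnpl encodes an RNA-binding protein that regulates splicing. The Hnrnpl-null libraries are titled CKO with no further explanation, and the labels do not say in which cells the gene was removed or whether libraries came from separate animals. The spread behind each p-value is therefore that between libraries and may be technical.

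Cholesterol is built from acetyl-CoA by way of mevalonate, isoprenoid units, squalene and lanosterol. When sterols are scarce, SCAP carries the membrane-bound factor SREBP2 from the endoplasmic reticulum to the Golgi, where proteases release it to enter the nucleus and raise transcription of most enzymes of the pathway. When sterols are plentiful, INSIG proteins hold SCAP back. In the ovary cholesterol is also the starting material of steroid hormones, and growing mouse oocytes draw on cholesterol made by the granulosa cells around them.

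Promoter sequences are shown for Hmgcs1 and Insig1, the 2 listed genes with the highest level per exonic length, and for Srebf2, which encodes SREBP2. They are RefSeq sequences on GRCm38.p6, 5′ to 3′ on the strand of the gene, cut to the stretch that GENCODE vM21 does not annotate as exon. Capitals mark matches on either strand to TCACNCCAC, a core of the sterol regulatory element, to its shorter form TCACNCCA, which every match to the longer form also contains, and to CCAAT, the box bound by NF-Y.
Hmgcs1, chr13:119690101-119690350, plus strand: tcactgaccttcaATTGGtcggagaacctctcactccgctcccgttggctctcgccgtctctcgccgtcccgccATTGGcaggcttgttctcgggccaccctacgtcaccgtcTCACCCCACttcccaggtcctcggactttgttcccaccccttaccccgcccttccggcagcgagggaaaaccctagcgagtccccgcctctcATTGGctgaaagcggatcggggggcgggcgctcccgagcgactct
Insig1, chr5:28071162-28071362, plus strand: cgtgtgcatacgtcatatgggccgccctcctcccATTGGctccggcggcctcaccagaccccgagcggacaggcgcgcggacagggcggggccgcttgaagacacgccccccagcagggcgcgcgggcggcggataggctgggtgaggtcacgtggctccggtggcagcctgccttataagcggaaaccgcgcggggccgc
Srebf2, chr15:82147019-82147180, plus strand: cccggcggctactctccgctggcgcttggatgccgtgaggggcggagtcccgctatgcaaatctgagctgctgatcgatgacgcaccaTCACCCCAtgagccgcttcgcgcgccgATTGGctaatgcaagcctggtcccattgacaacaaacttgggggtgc

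Of the 7 genes, 5 were found in the promoter table (Hmgcs1, Idi1, Cyp51, Dhcr7 and Insig1). In the 250 bases before their starts, TCACNCCAC was found for Hmgcs1 alone, where it begins 137 bases before the start. It was found for 1.22% of the 27025 genes with a promoter in the table, and the shorter TCACNCCA for 4.2%. Srebf2 held the shorter form, beginning 162 bases before its start. CCAAT was found for 5 of 5, against 37.5% of all genes, and GGGCGG, the box bound by SP1, for 5 of 5, against 35.4% of all genes. For Dhcr7, which has 3 starts in the table, both CCAAT matches lie before the third start. These counts, for the listed genes and for all genes, include bases annotated as exon. All 250 bases before the start of Idi1 are annotated as exon, as are the CCAAT matches of Cyp51 and Dhcr7. Outside annotated exon, CCAAT was found for Hmgcs1 and Insig1 alone, and GGGCGG for each of the 5 but Idi1. A match is a string of letters and not a measured binding site.

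The libraries differed in usable depth. Total counts ran from 8949781 to 22401419, but those of Rn45s, a precursor of ribosomal RNA, made up 18.6% to 36.0% in 4 libraries, 83.0% in the first WT library and 86.1% in the third Hnrnpl-null library. What remained ranged from 1757572 counts, in Hnrnpl-null replicate 3, to 10980179. Of the counts from 1 to 10, 94.4% to 98.5% were even numbers, so that independent fragments may be fewer than the counts. Hnrnpl itself was at 145 to 172 CPM in WT and 166 to 213 CPM in Hnrnpl-null (edgeR adjusted p = 0.50), so its summed count does not check the labels. Levels are given as CPM on the TMM-scaled library size.

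Markers showed libraries of mixed ovarian cells, although oocyte is the labelled cell type. A gene is said to be called where edgeR's quasi-likelihood test gave a Benjamini-Hochberg adjusted p below 0.05, which held for 2.67% of 14849 tested genes in the higher direction and 1.79% in the lower. Col1a1, a collagen of stroma, was at 2666 to 2891 CPM in WT and 4253 to 4685 CPM in Hnrnpl-null, while Dazl, a germ cell RNA-binding protein, was at 54.5 to 64.1 CPM in WT and 28.3 to 43.1 CPM in Hnrnpl-null. The summed level of 7 germ cell markers was 171 to 188 CPM in WT and 77.3 to 88.7 CPM in Hnrnpl-null, with 6 of 7 called lower. Of 6 macrophage and leukocyte markers 3 were called higher, the pan-leukocyte genes Ptprc, Laptm5 and Coro1a. The summed level of the 6 was 50.2 to 58.2 CPM in WT and 127 to 142 CPM in Hnrnpl-null. The macrophage genes Csf1r, Adgre1 and C1qa were not called (ratios 1.45, 1.61 and 0.840, edgeR adjusted p of 0.091, 0.23 and 0.68). Of 5 myeloid progenitor markers 5 were called higher (2.37 to 2.90 CPM in WT, 514 to 675 CPM in Hnrnpl-null). Stroma markers were called higher in 3 of 6 cases and surface epithelium markers in 2 of 3, with no lower call in either list. Of 7 pregranulosa markers, from the somatic cells that surround oocytes, 1 was called higher (Kitl, ratio 2.22) and 0 lower, and their summed level was 414 to 465 CPM in WT and 479 to 520.0 CPM in Hnrnpl-null. At an unadjusted p below 0.05, 2 of these 7 were lower, beside 2746 of all 14849 tested genes in either direction. Endothelial markers held 0 calls by edgeR among 4 (129 to 155 and 142 to 150 CPM, with 1 higher and 1 lower at an unadjusted p below 0.05), and erythroid markers 0 among 4 (20.1 to 35.9 and 29.4 to 73.0 CPM, with 2 higher). Hepatocyte markers had 28 counts over 4 genes and all 6 libraries, with Alb at 0 throughout. In such bulk samples fewer cells of a type and less RNA per cell cannot be told apart, and the part of cell makeup in the values below was not tested.

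None of the 7 cholesterol genes was called different between the groups. Of the 14849 tested genes 663 were called in either direction, or 4.46%, with 2.67% higher and 1.79% lower. All 7 genes passed the filter on low counts and 0 were called, which is near the background share of 4.46%. At an unadjusted p below 0.05 edgeR found 0 of the 7, DESeq2 0 and limma-voom 1 (Idi1), beside 2746 of all 14849 tested genes by edgeR. DESeq2 and limma-voom called 0 of the 7 as well. The median log2 fold change of the 7 was 0.05, from -0.20 for Fdft1 to 0.86 for Idi1, and the median of all tested genes was -0.01. Summed over the 7, the WT libraries held 211, 195 and 204 CPM and the Hnrnpl-null libraries 203, 225 and 188 CPM in the order of their replicate numbers, so the groups overlapped.

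**Figure D1:**
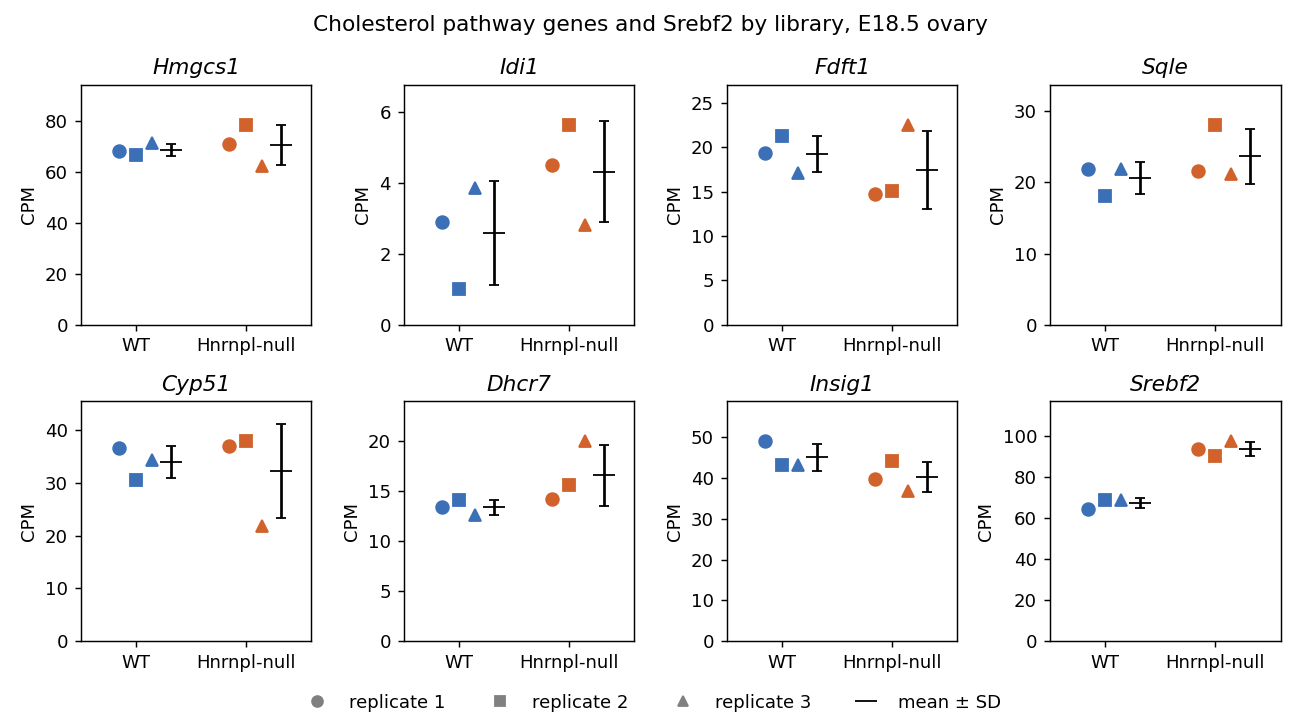
Level in CPM (y axes, from 0) of the 7 listed genes and Srebf2 in each library, with WT in blue, Hnrnpl-null in orange, symbol shape for the replicate number and the bar for the mean ± SD of 3 libraries. Each listed gene except Dhcr7 overlaps between the groups, while Srebf2 lies at 64.4 to 69.0 CPM in WT and 90.5 to 97.5 CPM in Hnrnpl-null.

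Hmgcs1 (chr13:119690351-119708260, mm10, plus strand) encodes the cytosolic synthase that makes HMG-CoA, the first compound particular to the mevalonate route. In the order of the replicate numbers, which is kept below, the WT libraries were at 68.2, 66.6 and 71.3 CPM and the Hnrnpl-null libraries at 70.9, 78.6 and 62.5 CPM. The lowest and the highest of the 6 libraries were both Hnrnpl-null, and all WT values lay between them. The means were 68.7 ± 2.41 and 70.7 ± 8.04 CPM (SD, n = 3 each), a ratio (Hnrnpl-null over WT) of 1.03 and a 95% interval of 0.869 to 1.23 (edgeR adjusted p = 0.87).

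Idi1 (chr13:8885606-8892396, plus strand) encodes an isomerase that turns isopentenyl diphosphate into the second isoprenoid building block, dimethylallyl diphosphate. The WT libraries were at 2.90, 0.995 and 3.86 CPM, on 22, 24 and 56 counts. The Hnrnpl-null libraries were at 4.51, 5.63 and 2.81 CPM, on 107, 148 and 9 counts. Hnrnpl-null replicate 3, the shallowest library, lay among the WT values. The ratio was 1.81, with an interval of 0.892 to 3.68 (edgeR adjusted p = 0.37), so these counts do not exclude a 2-fold higher level. By limma-voom the log2 fold change was 1.42 (adjusted p = 0.053), and by edgeR it went from 0.86 to 0.41 without WT replicate 2 and 1.35 without WT replicate 3, not called in either case.

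Fdft1 (chr14:63145151-63179578, minus strand) encodes squalene synthase, which commits isoprenoids to sterols. Its levels were 19.4, 21.2 and 17.1 CPM in WT, beside 14.7, 15.1 and 22.5 CPM in Hnrnpl-null. Hnrnpl-null replicates 1 and 2 lay below every WT library and replicate 3 above them all. The ratio was 0.872 (0.657 to 1.16, edgeR adjusted p = 0.63). Without Hnrnpl-null replicate 3 the log2 fold change went from -0.20 to -0.37 (edgeR adjusted p = 0.24). Of the exonic length of 3697 bases, 773 are shared with exons of Ctsb, where reads can be assigned to 1 of the 2 genes only if strand was used in counting.

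Sqle (chr15:59315092-59331193, plus strand) encodes squalene epoxidase, one of the rate-limiting enzymes of the pathway. It was at 21.9, 18.03 and 21.9 CPM in WT and at 21.7, 28.1 and 21.2 CPM in Hnrnpl-null. Hnrnpl-null replicate 2 was the highest and WT replicate 2 the lowest, and the other 4 libraries were close together. The ratio was 1.17 (0.913 to 1.49, edgeR adjusted p = 0.52).

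Cyp51 (chr5:4080674-4104697, minus strand) encodes lanosterol demethylase, a cytochrome P450 that starts the conversion of lanosterol to cholesterol. It was at 36.6, 30.6 and 34.3 CPM in WT and at 37.0, 37.8 and 21.9 CPM in Hnrnpl-null. Hnrnpl-null replicates 1 and 2 were just above the WT libraries, and replicate 3 was the lowest of all, on 70 counts. The ratio was 0.982 (0.754 to 1.28, edgeR adjusted p = 0.96), and its log2 fold change turned from -0.03 to 0.15 without Hnrnpl-null replicate 3 (edgeR adjusted p = 0.55).

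Dhcr7 (chr7:143823167-143848410, plus strand) encodes the reductase that makes cholesterol from its immediate precursor. It was at 13.4, 14.2 and 12.7 CPM in WT and at 14.2, 15.6 and 20.0 CPM in Hnrnpl-null. It was the single listed gene whose groups did not overlap, with the highest WT library at 14.18 CPM beside the lowest Hnrnpl-null library at 14.21 CPM. Groups were apart in 25.6% of all tested genes. The ratio was 1.204 (0.917 to 1.58, edgeR adjusted p = 0.48). Without Hnrnpl-null replicate 3, whose 20.0 CPM rest on 64 counts, the log2 fold change went from 0.27 to 0.15 (edgeR adjusted p = 0.68).

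Insig1 (chr5:28071412-28078662, plus strand) encodes the protein that holds SCAP in the endoplasmic reticulum and is itself a target of SREBP2. It was at 49.0, 43.2 and 43.3 CPM in WT and at 39.9, 44.2 and 36.9 CPM in Hnrnpl-null. Only Hnrnpl-null replicate 2 reached into the WT range. The ratio was 0.900 (0.749 to 1.08, edgeR adjusted p = 0.56). For the listed genes other than Idi1 the intervals ran from 0.657 to 1.58 at their widest, so that a 2-fold difference in either direction lay outside each of the 6.

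Levels of the 7 genes relative to each other were compared per kilobase of exon. Over the 6 libraries Hmgcs1 had a mean of 19.5 and Insig1 of 16.1 CPM per kb, above 91.9% and 89.4% of all tested genes. Within each group every library of Hmgcs1 was above every library of Insig1. Sqle and Cyp51 followed at 8.06 and 7.59 CPM per kb and overlapped in both groups. Dhcr7 and Fdft1, at 5.33 and 4.96 CPM per kb, also overlapped in both groups, and both were above the median of all tested genes, 3.78 CPM per kb. In Hnrnpl-null replicate 3, Cyp51 was at 5.03 CPM per kb, inside the range of Fdft1 in that group and below every library of Dhcr7. Idi1 was the lowest in every library, with 0.347 to 1.35 CPM per kb in WT and 0.981 to 1.97 in Hnrnpl-null, and 23.2% of tested genes were lower. The order was the same in the means of both groups except within the pairs Sqle and Cyp51, and Dhcr7 and Fdft1.

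**Figure D2:**
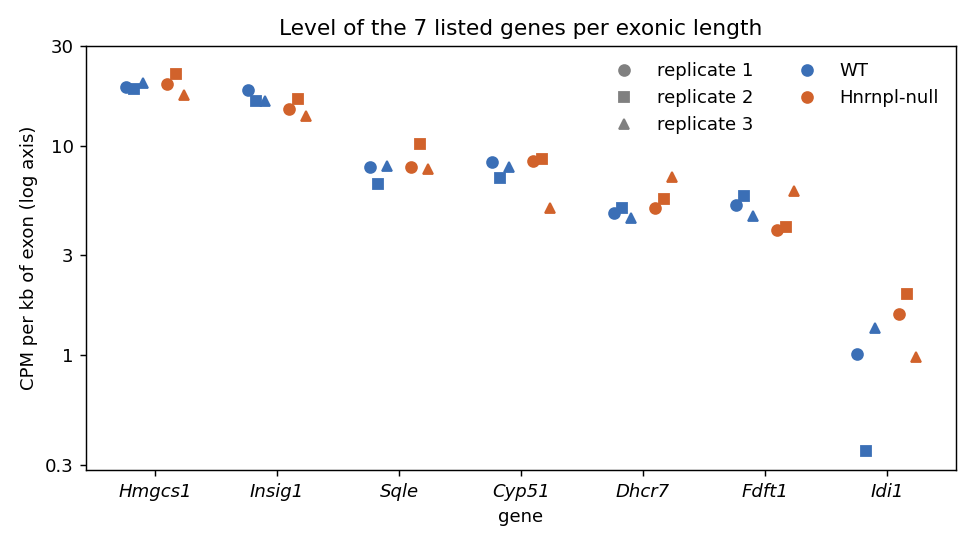
Level per kilobase of exon (log axis) of the 7 listed genes in each library, ordered by the mean over 6 libraries, with WT in blue, Hnrnpl-null in orange and symbol shape for the replicate number. Hmgcs1 and Insig1 lie at 13.9 to 22.0 CPM per kb and Idi1 at 0.347 to 1.97 CPM per kb.

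The 7 genes did not vary as one block across libraries. Pearson's r of log2 CPM was computed for 21 pairs over the 6 libraries, which share depth and composition, and is given as a description. Over the 21 pairs the median r was 0.12, and 12 were above 0. Hmgcs1, Idi1, Sqle and Cyp51 were grouped after these values were seen, so their r describes the grouping and does not test it. Among these 4, r ran from 0.37 (Idi1 and Cyp51) to 0.85 (Idi1 and Sqle). Over the 5 libraries other than Hnrnpl-null replicate 3 it ran from 0.67 to 0.95. Fdft1 ran against these 4 enzymes, with r from -0.87 (Hmgcs1) to -0.63 (Sqle), and from -0.89 to -0.72 without that library. The relation of Fdft1 to Dhcr7 rested on Hnrnpl-null replicate 3, with r of 0.43 over 6 libraries and -0.37 without it. Insig1 had r from -0.05 (Idi1) to 0.70 (Cyp51) with the 4 enzymes, and from -0.14 to 0.12 without that library. Deviations from the group means were taken over all 6 libraries. Among the 4 enzymes their r was 0.60 to 0.87, and between them and Fdft1 -0.94 to -0.56. It was 0.51 to 0.77 between the 4 and Insig1, -0.92 to -0.38 between them and Dhcr7, and 0.97 for Fdft1 and Dhcr7. The r of deviations was not computed without Hnrnpl-null replicate 3, on which these values may rest. Without that library, r of log2 CPM between Dhcr7 and the 4 enzymes was 0.18 to 0.58. Among 9949 other tested genes with a mean of at least 5 CPM, those whose log2 CPM was closest to the mean standardised pattern of the 7 were Stard5 (r = 0.99), Clec11a (0.99), Sgpl1 (0.98), Ptpra (0.98) and Rfx2 (0.97). With 6 libraries and that many genes, values this high carry little weight.

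Srebf2, the gene of the factor that drives these enzymes, rose in the libraries labelled Hnrnpl-null. The WT libraries were at 64.4, 68.7 and 69.0 CPM and the Hnrnpl-null libraries at 93.8, 90.5 and 97.5 CPM. Every Hnrnpl-null library was above every WT library. The means were 67.4 ± 2.57 and 93.9 ± 3.50 CPM (SD, n = 3 each). The log2 fold change was 0.48 ± 0.11 (SE) and the ratio 1.39, with an interval of 1.19 to 1.63 (edgeR adjusted p = 0.021). Srebf2 was no longer called when a library other than Hnrnpl-null replicate 3 was left out (edgeR adjusted p of 0.066 to 0.094) or without both libraries richest in Rn45s (0.051), with the log2 fold change at 0.43 to 0.50. Whether the change of Srebf2 differed from that of any of the 7 genes was not tested.

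Other parts of the sterol switch were not called. Srebf1, which encodes the related factor that favours fatty acid synthesis, was at 34.5, 40.7 and 34.5 CPM in WT and 48.6, 40.9 and 53.7 CPM in Hnrnpl-null, apart but not called (ratio 1.29, 1.05 to 1.58, edgeR adjusted p = 0.15). Scap had a ratio of 0.906 (0.757 to 1.08), and Insig2, the relative of Insig1, 0.981 (0.694 to 1.39). Mbtps1 and Mbtps2, the genes of the proteases that cut SREBP2 in the Golgi, had ratios of 1.08 (0.914 to 1.26) and 1.09 (0.786 to 1.504). Of 12 genes in the list of sterol sensing and SREBP control, Srebf2 was the single call, 4 had an unadjusted p below 0.05, all of them higher, and the median log2 fold change was 0.11. For calls in this list and those that follow the background is 2.67% of tested genes called higher, and for an unadjusted p below 0.05 it is 2746 of 14849 genes in either direction.

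**Figure D3:**
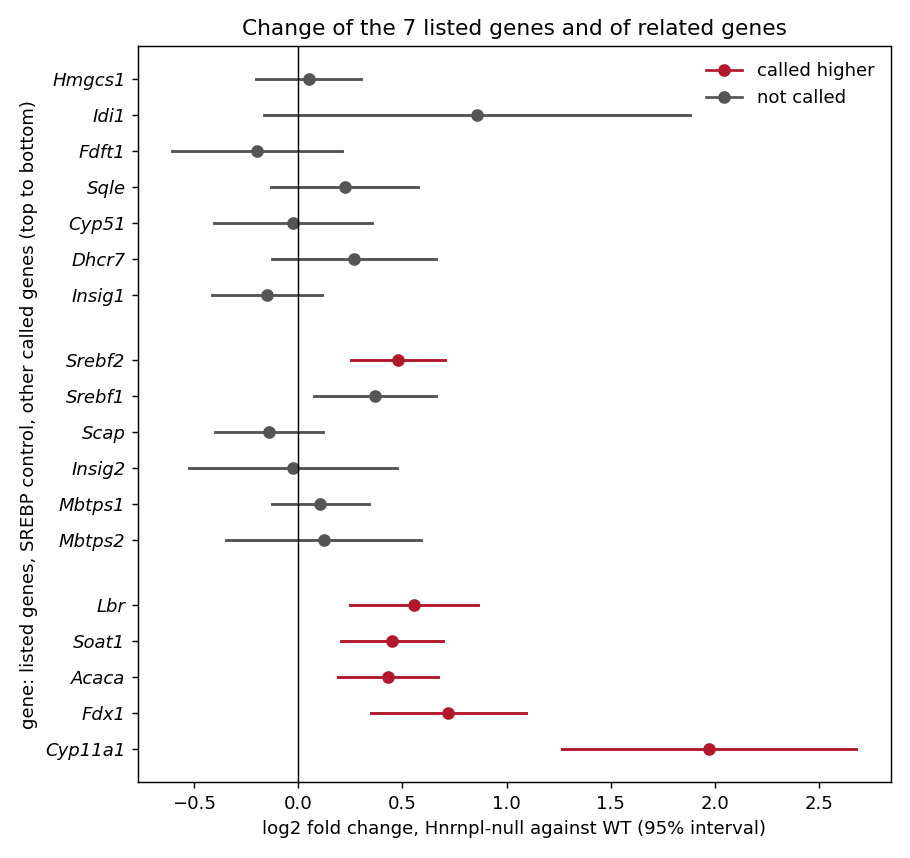
Log2 fold change of Hnrnpl-null against WT with its 95% interval (x axis) for the 7 listed genes, 6 genes of SREBP control and 5 other called genes, in red where called higher by edgeR and in grey where not called. The intervals of the 7 listed genes all include 0, and that of Srebf2 lies above it.

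Among 15 other enzymes of cholesterol synthesis, 1 was called higher and 0 lower, with a median log2 fold change of 0.12. At an unadjusted p below 0.05, 3 of the 15 were higher and 0 lower. Of the 15 log2 fold changes 11 were positive and 4 negative. The summed level of the 15 was 230 to 240 CPM in WT and 265 to 284 CPM in Hnrnpl-null, without overlap. That difference was not tested. The called one was Lbr, the lamin B receptor, an inner nuclear membrane protein with sterol reductase activity. It was at 43.2, 30.3 and 33.9 CPM in WT and at 56.7, 50.4 and 49.4 CPM in Hnrnpl-null, with no overlap (ratio 1.47, 1.19 to 1.82, edgeR adjusted p = 0.044). Leaving out WT replicate 2, WT replicate 3, Hnrnpl-null replicate 1 or Hnrnpl-null replicate 2 ended the call of Lbr (edgeR adjusted p of 0.12 to 0.21). The 8 genes of isoprenoid branches of the pathway held 0 calls by edgeR and 0 with an unadjusted p below 0.05, with a median of -0.05.

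The list of lipoprotein uptake and intracellular cholesterol transport had 13 tested genes, of which 0 were called by edgeR and 1 had an unadjusted p below 0.05, with a median log2 fold change of 0.02. In the list of efflux, storage and oxysterols, 1 of 8 tested genes was called, and its median was 0.23. It was Soat1, which esterifies cholesterol for storage. Soat1 was at 195, 190 and 197 CPM in WT and at 245, 286 and 262 CPM in Hnrnpl-null, a ratio of 1.36 (1.15 to 1.62, edgeR adjusted p = 0.041). It too was no longer called when a library other than Hnrnpl-null replicate 3 was left out (edgeR adjusted p of 0.063 to 0.17).

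Among 10 fatty acid genes known as targets of SREBP1, Acaca was called higher and 9 genes were not called, with a median of 0.19. At an unadjusted p below 0.05, 3 of the 10 were higher and 0 lower. Their summed level was 927 to 997 CPM in WT and 1082 to 1186 CPM in Hnrnpl-null. Acaca encodes acetyl-CoA carboxylase, the first committed enzyme of fatty acid synthesis. It was at 55.1, 64.0 and 55.7 CPM in WT and at 79.8, 80.0 and 75.6 CPM in Hnrnpl-null, a ratio of 1.35 (1.14 to 1.59, edgeR adjusted p = 0.046). With a library other than Hnrnpl-null replicate 3 left out, the edgeR adjusted p was 0.090 to 0.16, and without both libraries richest in Rn45s 0.067, so the call was lost.

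Genes that turn cholesterol into steroid hormones held the largest change of these lists, with 2 of 6 tested genes called higher, 0 called lower and a median of 0.43. At an unadjusted p below 0.05, 3 were higher and 1 lower. The lower one was Fdxr, the reductase that supplies electrons to Fdx1, with a ratio of 0.789 (0.627 to 0.992, edgeR adjusted p = 0.25) and groups that did not overlap. Cyp11a1, which encodes the mitochondrial enzyme that cuts the cholesterol side chain to give pregnenolone, was at 1.58, 2.57 and 3.997 CPM in WT and at 8.52, 11.6 and 13.7 CPM in Hnrnpl-null. The groups were well apart, with a ratio of 3.93 (2.41 to 6.41, edgeR adjusted p = 0.0038), and the call held without each library in turn. Fdx1, the ferredoxin that passes electrons to that enzyme, was at 13.3, 11.2 and 12.3 CPM in WT and at 21.6, 17.5 and 21.6 CPM in Hnrnpl-null (ratio 1.65, 1.27 to 2.13, edgeR adjusted p = 0.032). Leaving out a library other than Hnrnpl-null replicate 3 ended the call of Fdx1 (edgeR adjusted p of 0.059 to 0.14). Star, which brings cholesterol into mitochondria, was at 27.7, 23.5 and 26.9 CPM in WT and at 27.7, 44.1 and 45.0 CPM in Hnrnpl-null. Star was not called (edgeR adjusted p = 0.096), but was called higher by DESeq2 (adjusted p = 0.049) and by edgeR with robust dispersions (0.0497), with no filter (0.015) and without Hnrnpl-null replicate 1 (0.015). A list of 5 markers of adrenal or Leydig cells, which shares Cyp11a1, Star and Hsd3b1 with these genes, had a summed level of 40.1 to 47.3 CPM in WT and 51.1 to 77.7 CPM in Hnrnpl-null. Those 3 were tested, with a median log2 fold change of 0.57 and Cyp11a1 as the single call, and Hsd3b1, a dehydrogenase of steroid synthesis, had a ratio of 1.22 (0.916 to 1.63, edgeR adjusted p = 0.47). The other 2, Cyp11b1 of the adrenal cortex and Insl3 of Leydig and theca cells, had at most 6 counts in any library. The part of such cells in these values was not tested.

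**Figure D4:**
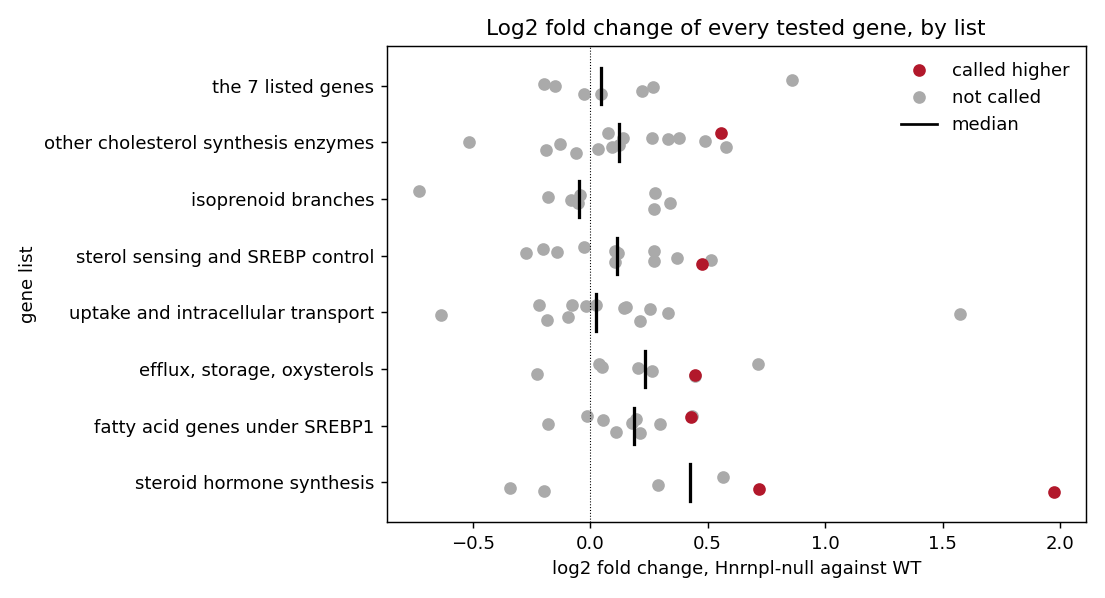
Log2 fold change of Hnrnpl-null against WT (x axis) for every tested gene of the 8 lists (y axis), in red where called higher by edgeR, in grey where not called, with a bar at the median of each list. The medians run from -0.05 for isoprenoid branches to 0.43 for steroid hormone synthesis, and no gene of these lists was called lower.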

How the data were processed

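RNA of dissociated ovaries was sequenced in 6 libraries. The authors deposited raw counts per gene for each library with exonic lengths in bases, in the layout of featureCounts per the file headers. STAR 2.7.11a, HISAT2 2.2.1, featureCounts 2.0.6 and mm10 are named, with no role or order, per the submitters' processing notes. The sources used here do not state the annotation, the strand setting or the treatment of multiply mapping reads.

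The test was edgeR 4.0.16 under R 4.3.3 (filter by filterByExpr on the groups, TMM scaling, glmQLFit and glmQLFTest, two-sided, genotype as the only term), adjusted over 14849 genes. Standard errors and 95% intervals derive from the F statistic of that test. Log2 CPM used a pseudocount of 0.5 counts. Alternatives were DESeq2 1.42.0, limma-voom 3.58.1, other scalings, filters and thresholds, and leaving libraries out.

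The 7 genes and the lists were chosen with earlier results of these data known. The text names the 7, up to 4 called genes of each list with the smallest p, the 5 genes most like the 7, and Hnrnpl and Rn45s. Srebf1, Scap, Insig2, Mbtps1 and Mbtps2 were added for their role, and Star, Fdxr and examples of marker genes after their values were seen. Some genes of the lists are counted but not reported by name here. Promoters came from RefSeq (GRCm38.p6), whose gene starts matched those of the count table for the genes shown. The bases just after each start were also searched for in GENCODE transcripts of the same gene. Those of Hmgcs1 alone were not found, and the reason was not tested.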

Additional observations from a re-analysis of the deposited data

How the results depend on the processing

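The count of 0 called among the 7 cholesterol genes was the same in each of the 20 other settings, and their median log2 fold change stayed between -0.04 and 0.15. With library totals alone as the scaling, 4 genes of the whole table were called (3 higher, 1 lower), so that setting bears little on any gene, and Srebf2, Lbr, Soat1, Acaca, Cyp11a1 and Fdx1 lost their calls there. The count of 663 called genes (397 higher, 266 lower) was 1086 with DESeq2 (643 and 443), 1273 with limma-voom (775 and 498), 1222 with sample weights (757 and 465), 1104 with no filter (633 and 471) and 236 at an adjusted p below 0.01 (147 and 89). Leaving out 1 library gave 249 to 853 (145 to 532 higher, 104 to 321 lower). The cause was not tested.

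Changes of sign touched genes near 0. Cyp51 was at 0.11 with limma-voom, 0.094 with sample weights, 0.14 with library totals, 0.21 without both libraries richest in Rn45s and 0.0087 with counts halved, and at -0.15 to 0.15 when 1 library was left out. Leaving out 1 library gave Hmgcs1 -0.036 to 0.12 and Insig2 -0.12 to 0.056, and Mbtps2 was at -0.020 without both libraries richest in Rn45s. At an adjusted p below 0.01, Cyp11a1 alone of the 6 genes named as called higher in the lists kept its call.

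Between libraries with the same replicate number in their titles, deviations from the group means had correlations of -0.09, 0.07 and -0.06 for numbers 1 to 3. Numbers 1 and 3 each include a library made up mostly of Rn45s, so these values cannot show whether the numbers pair the libraries. With the replicate number as a replicate block, 444 genes were called, 0 of the 7 among them, and Srebf2, Soat1, Acaca and Fdx1 were not called (edgeR adjusted p of 0.053 to 0.089). Upper quartile scaling also left Acaca uncalled (edgeR adjusted p = 0.054). Idi1 rested on few counts, 9 to 148 per library, and its log2 fold change of 0.86 was 0.41 to 1.35 when 1 library was left out.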
